A study of Mus musculus with 42 samples.

Results

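The genes described are 8 of the 12988 genes in the expression table: Aldh1a2, Rdh10, Dhrs3, Cyp26a1, Crabp1, Crabp2, Rarb and Rarg, which make, break down, carry or sense retinoic acid or its precursor. They were taken by gene symbol, and all 8 had a row. With them go the 72 of 141251 methylation tiles of 100 bp that lie within these genes or 2 kb on either side. The genes were selected on their CPM in these same 6 expression libraries, so those values are given as a description and not as a test; their methylation was not named as a ground for the choice.

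Male C57BL/6 mice, wild type, were given vehicle (control), 2.5 mg/kg/day (low) or 25 mg/kg/day (high) of DEHP, a phthalate plasticizer, for 67 days and were mated with females that received none. All RNA samples in the labels are from wild-type offspring labelled C57BL/6 * DBA/2J, male, at embryonic day 7.5 (E7.5), when the embryo gastrulates, and are either embryonic or extra-embryonic. The labels list 2 embryonic and 2 extra-embryonic RNA samples per group, and the expression table holds 2 libraries per group. For reduced representation bisulfite sequencing (RRBS, which reads CpG methylation in CpG-rich fragments), the methylation table holds 3 libraries per group. The RRBS samples in the labels are from the same 2 offspring tissues, 3 of each per group, or from sperm of C57BL/6 males aged 14 weeks, 4 per group. The column names give only treatment and a number, so neither table can be tied to a tissue by name, and the methylation columns cannot be tied by name to the offspring or to sperm. Whether a library is 1 animal or a pool is not given in the sources used here, and p-values measure the spread between these libraries.

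Retinoic acid is made from vitamin A by a reversible oxidation of retinol to retinaldehyde and then an irreversible oxidation to the acid, which binds nuclear receptors that sit on DNA as heterodimers with retinoid X receptors. At gastrulation its synthesis begins in the mesoderm leaving the primitive streak, and it is removed at the anterior and posterior ends of the embryo, so that a graded signal patterns the hindbrain, the somites and the heart. Several genes of the pathway are themselves switched on by the acid, through response elements built of a repeated hexamer.

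Promoter sequence was taken from RefSeq (GRCm38.p6), where 6 of the 8 genes had a window of 250 bases before to 50 bases after a start site. The windows of all genes were searched on both strands for a direct repeat with a spacing of 5 bases (DR5), meaning any pair, in the same orientation, of the hexamers AGGTCA (the common form), GGGTCA (first base changed), AGTTCA (another base changed) and GGTTCA (both changed). One match stood in the Rarb window and 1 in the Cyp26a1 window, and 0.115% of 27025 genes had one. No source is given for the choice of hexamers, and both genes are known to be induced by retinoic acid. The matches are therefore no finding about the members, and nothing is read from that share. The same pairs with a spacing of 2 bases stood in none of the members' windows and in 0.311% of genes. Both windows are shown because they hold the repeat, in capitals; the Cyp26a1 repeat reads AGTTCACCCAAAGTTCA on the opposite strand.
Rarb, chr14:16575427-16575726, minus strand: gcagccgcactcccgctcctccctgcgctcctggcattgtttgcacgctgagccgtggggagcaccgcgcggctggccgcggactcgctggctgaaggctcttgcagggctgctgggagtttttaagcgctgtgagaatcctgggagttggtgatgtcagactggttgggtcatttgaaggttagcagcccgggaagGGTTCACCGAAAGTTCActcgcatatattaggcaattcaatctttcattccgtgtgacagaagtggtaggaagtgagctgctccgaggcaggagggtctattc
Cyp26a1, chr19:37697558-37697857, plus strand: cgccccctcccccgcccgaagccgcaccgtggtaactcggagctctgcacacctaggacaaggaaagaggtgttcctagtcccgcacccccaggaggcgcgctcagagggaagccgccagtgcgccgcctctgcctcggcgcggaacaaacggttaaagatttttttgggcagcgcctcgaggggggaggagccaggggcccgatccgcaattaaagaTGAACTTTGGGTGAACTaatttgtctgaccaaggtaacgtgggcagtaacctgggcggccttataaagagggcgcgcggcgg
The Aldh1a2 window is shown because 4 methylation tiles overlap it, with its 50 CpG sites in capitals.
Aldh1a2, chr9:71215539-71215838, plus strand: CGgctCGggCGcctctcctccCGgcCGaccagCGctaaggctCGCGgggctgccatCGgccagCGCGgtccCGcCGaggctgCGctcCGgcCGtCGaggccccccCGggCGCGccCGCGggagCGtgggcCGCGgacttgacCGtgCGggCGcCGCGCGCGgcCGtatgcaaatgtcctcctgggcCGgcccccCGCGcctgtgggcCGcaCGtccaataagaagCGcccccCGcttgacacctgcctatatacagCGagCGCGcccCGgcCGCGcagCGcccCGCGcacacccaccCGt
A match is a description of the letters and not of binding, and the window of a gene without one says nothing of elements elsewhere.

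Aldh1a2, Crabp2 and Rarb lay below both controls in the low libraries and above both controls in the high libraries. Cyp26a1 and Rarg varied much less and did not follow this order. The table of CPM (reads of a gene scaled to the size of its library, by the authors) is built of whole multiples of a step of 0.00515 to 0.0065 CPM, so depth can be compared, a larger step meaning a shallower library: the steps were largest, at 0.0065 and 0.00611 CPM, in the high libraries. The lowest member value, Rarb in low 1, is 151 steps. Fold changes below are differences of log2(CPM + 1) from a limma fit over 12987 genes, which understate the change of genes near 1 CPM, and all 8 members passed its filter on low values.

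Aldh1a2 (ENSMUSG00000013584, chromosome 9, 71215789 to 71296243) encodes the enzyme that makes most retinoic acid in the early embryo. It was at 35.3 and 25.8 CPM in the controls, 1.36 and 10.3 CPM in the low libraries, and 59.7 and 69.5 CPM in the high libraries. The 3 groups did not overlap, and the highest library was 51.1 times the lowest. The mean was 5.82 ± 6.31 CPM in the low group and 30.5 ± 6.70 CPM in the controls (SD, n = 2 each), a log2 difference of -2.60 (SE 0.60). For the high group, at a mean of 64.6 ± 6.97 CPM (SD, n = 2), the log2 difference was 1.07 (SE 0.60) against the controls and 3.66 (SE 0.60) against the low group. The 2 low libraries themselves stood far apart: low against control, the difference was -1.47 without low 1 and -3.72 without low 2.

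Rdh10 (ENSMUSG00000025921, chromosome 1, 16105774 to 16133734) encodes the dehydrogenase that turns retinol into retinaldehyde, the substrate of Aldh1a2. It was at 11.7 and 9.80 CPM in the controls, 10.2 and 11.1 CPM in the low libraries, and 12.3 and 14.8 CPM in the high libraries. The low libraries lay between the controls, and the high libraries lay above all others. The log2 difference was -0.01 (SE 0.12) for low against control and 0.31 (SE 0.12) for high against control. Within each library, the ratio of Aldh1a2 to Rdh10 CPM, which no scaling of the library can change, was 3.03 and 2.63 in the controls, 0.133 and 0.928 in the low libraries, and 4.85 and 4.69 in the high libraries. That ratio separated all 3 groups, as Aldh1a2 alone did. Since the highest Rdh10 library was only 1.51 times the lowest, the ratio restates the Aldh1a2 values and adds no separate evidence.

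Dhrs3 (ENSMUSG00000066026, chromosome 4, 144892827 to 144928209) encodes a reductase that returns retinaldehyde to retinol. It was at 1.56 and 1.59 CPM in the controls, 1.63 and 1.48 CPM in the low libraries, and 2.29 and 2.13 CPM in the high libraries. As for Rdh10, the low libraries overlapped the controls and both high libraries stood above them. Its log2 difference for high against control was 0.32 (SE 0.10), and 0.46 with a pseudocount of 0.1.

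Cyp26a1 (ENSMUSG00000024987, chromosome 19, 37697798 to 37701536) encodes the enzyme that breaks retinoic acid down, and is known to be induced by it. It was at 72.5 and 74.7 CPM in the controls, 102 and 69.2 CPM in the low libraries, and 67.3 and 67.1 CPM in the high libraries. Library low 1, which had the least Aldh1a2, had the most Cyp26a1, whereas low 2 lay below both controls. Cyp26a1 was the 1 member that was lower in the high libraries than in the controls without overlap, by a log2 difference of -0.13 (SE 0.15). Low against control, the difference was 0.19 (SE 0.15), and it was -0.09 without low 1, so its direction rested on that library. The ratio of Aldh1a2 to Cyp26a1 CPM was 0.487 and 0.345 in the controls, 0.0133 and 0.148 in the low libraries, and 0.887 and 1.04 in the high libraries.

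Crabp1 and Crabp2 encode small binding proteins that hold retinoic acid in the cytoplasm, and Crabp2 also hands it to its receptors in the nucleus. Crabp2 (ENSMUSG00000004885, chromosome 3, 87948666 to 87953376) was at 25.3 and 19.3 CPM in the controls, 7.07 and 15.4 CPM in the low libraries, and 31.3 and 34.8 CPM in the high libraries. Its groups did not overlap. The log2 difference was -1.01 (SE 0.29) for low against control (-0.49 without low 1) and 0.56 (SE 0.29) for high against control. Crabp1 (ENSMUSG00000032291, chromosome 9, 54764748 to 54773110) was at 20.1 and 17.1 CPM in the controls, 11.3 and 18.1 CPM in the low libraries, and 25.4 and 23.8 CPM in the high libraries. For Crabp1, low 2 lay between the controls, and the log2 difference for low against control was -0.35 (SE 0.19), or -0.03 without low 1. High against control, Crabp1 differed by 0.39 (SE 0.19). The ratio of Crabp2 to Crabp1 CPM was 1.26 and 1.13 in the controls, 0.625 and 0.850 in the low libraries, and 1.23 and 1.46 in the high libraries, so both low libraries lay below all others.

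Rarb and Rarg encode nuclear receptors for the acid. Rarb (ENSMUSG00000017491, chromosome 14, 16430839 to 16819156), whose promoter repeat is shown above and which its own ligand induces, was at 2.29 and 1.56 CPM in the controls, 0.813 and 1.46 CPM in the low libraries, and 4.05 and 3.85 CPM in the high libraries. The groups did not overlap, though low 2 and control 2 lay close together. The log2 difference was -0.46 (SE 0.18) for low against control, 0.77 (SE 0.18) for high against control, and the high group exceeded the low group by 1.23 (SE 0.18); the last was 1.76 with a pseudocount of 0.1. Rarg (ENSMUSG00000001288, chromosome 15, 102234938 to 102257517), the receptor of the streak and caudal embryo, was at 48.5 and 50.6 CPM in the controls, 44.2 and 48.2 CPM in the low libraries, and 49.3 and 48.7 CPM in the high libraries. It varied least of the 8, with a highest library 1.14 times the lowest.

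**Figure D1:**
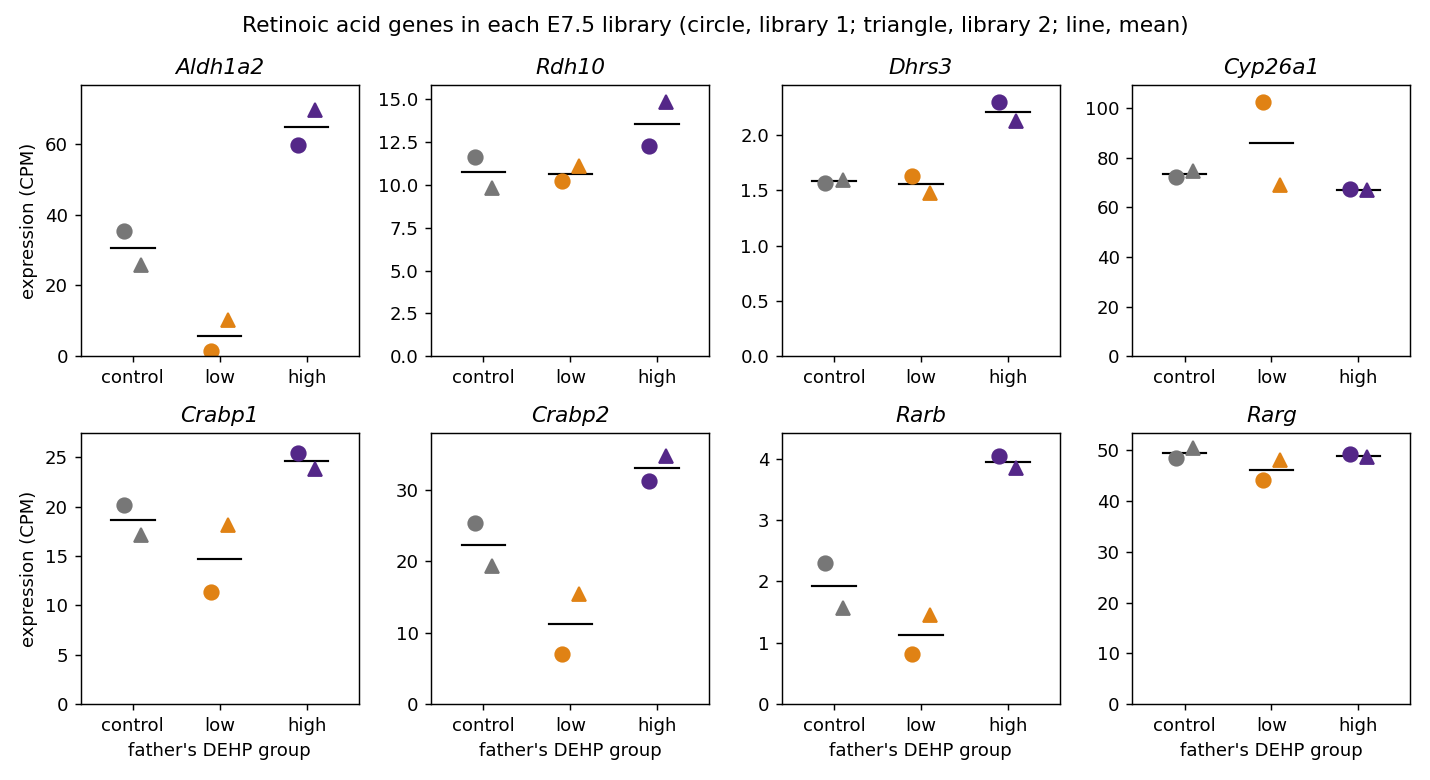
Expression of the 8 genes in CPM (vertical axis, linear from 0) in the control, low and high libraries; circles are library 1 and triangles library 2 of a group, and lines are means of 2 libraries. Aldh1a2, Crabp2 and Rarb are lowest in the low group and highest in the high group, with low 1 below low 2, whereas Rarg stays between 44.2 and 50.6 CPM.

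Counted over the members, 4 of 8 lay lower in both low libraries than in both controls and 0 lay higher, where 17.2% of all genes lay lower and 18% higher. One of the 4, Rarg, was separated from the controls by less than 1 CPM. The median log2 difference was -0.22, beside 0.00 for all genes. High against control, 6 of 8 lay higher and 1 lower, where 23.5% and 12.1% of all genes did, and the median was 0.35 beside 0.02 for all genes. High against low, 7 of 8 lay higher and 1, Cyp26a1, lower, where 21.8% and 11.8% of all genes did, and the median was 0.53 beside 0.01. The order low, control, high without overlap was held by 3 members, Aldh1a2, Crabp2 and Rarb, and by 2.29% of all genes. Both comparisons with the controls share the same 2 control libraries, and the members were proposed with these values known, so nothing is read from these shares. Without low 1 the count without overlap, in either direction, for low against control was 6, and without low 2 it was 7. Of these 7, Dhrs3 and Cyp26a1 lay higher in low 1 than in both controls. A single library overlaps less easily, and the share of all genes with a library left out was not computed.

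Limma over all genes called 0 genes (0.0%) for low against control, 1 gene (0.0077%) for high against control and 0 genes (0.0%) for high against low at an adjusted p under 0.05. Of the 8 members, 0 were called in any of the 3 comparisons. At an unadjusted p under 0.05 stood 633 (4.87%), 687 (5.29%) and 1027 genes (7.91%) in these comparisons, and no other tool was run. With 2 libraries a group, the large difference of Aldh1a2 goes with a large spread between the low libraries.

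**Figure D2:**
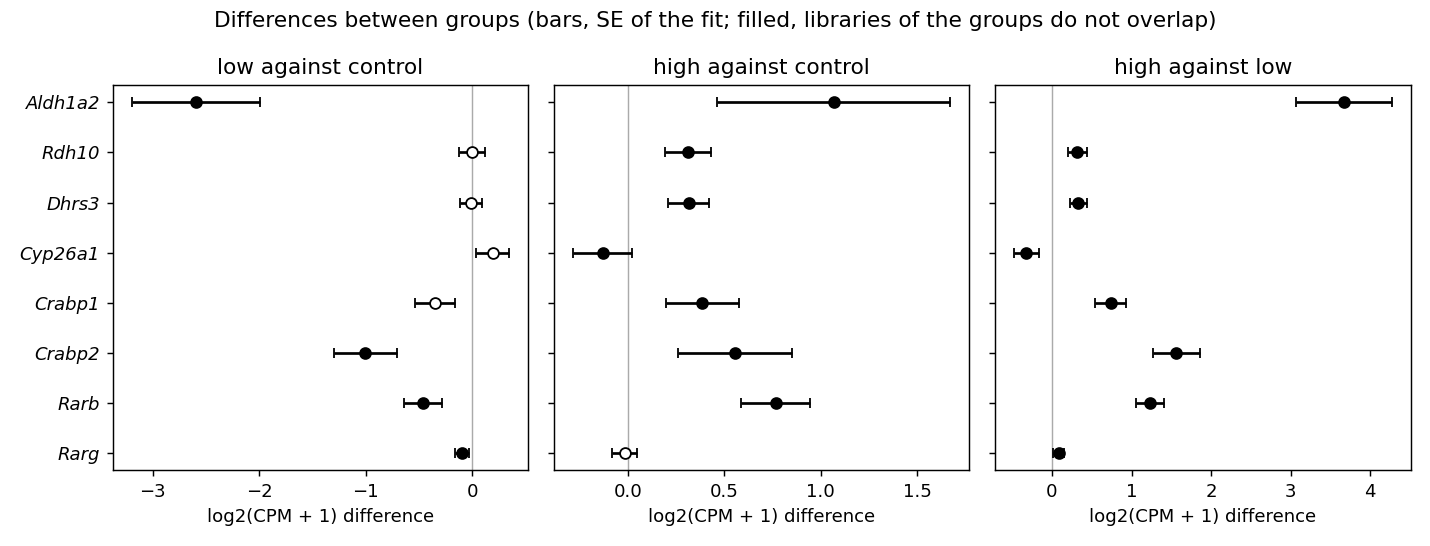
Difference of log2(CPM + 1) for each gene in the 3 comparisons (horizontal axis, with its own range in each panel); bars are the SE of the limma fit on 6 libraries, and filled points are genes whose libraries do not overlap between the groups. Aldh1a2 has the widest bars (SE 0.60) and Rarg the narrowest (SE 0.06).

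Among 177 genes with a mean of at least 5 CPM and a range of at least 1 on the log2 scale, those whose log2(CPM + 1) followed Aldh1a2 most closely over the 6 libraries were Frem1 (Pearson r = 0.996), Rnf213 (0.995), Kif26b (0.994), Crabp2 (0.994) and Sdk2 (0.988). Frem1, which encodes an extracellular matrix protein, was at 19.99 and 18.2 CPM in the controls, 8.30 and 13.3 CPM in the low libraries, and 21.2 and 23.8 CPM in the high libraries. Rnf213, which encodes a ubiquitin ligase, was at 26.8 and 22.3 CPM, 10.3 and 19.1 CPM, and 30.7 and 32.9 CPM in the same order of groups. Kif26b belongs to the kinesin family and Sdk2 to the cell adhesion proteins of the immunoglobulin superfamily. Crabp1 ranked at place 29 of 177, with r = 0.9503. The 6 points share the same libraries, with low 1 as the lowest point for Aldh1a2, so these values describe likeness in these libraries and no more.

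Other genes of the pathway were taken from 3 lists, chosen with earlier results of these data known, of which 50 of 67 genes had a row. Of these 50, 0 were called by limma in any comparison at an adjusted p under 0.05. This count changed when low 2 was left out. That fit leaves low 1 alone with a spread borrowed from the other groups, and nothing is read from it.

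Of 15 measured genes of retinol uptake, storage, oxidation, carriage and breakdown, 10 were higher and 5 lower by sign for low against control (median log2 difference 0.05), 11 and 4 for high against control (0.05), while high against low gave 8 and 7 (0.05). The genes with the smallest p included Aldh1a3, a second enzyme that makes retinoic acid, at 2.55 and 2.80 CPM in the low libraries, against 1.88 and 1.83 CPM in the controls (log2 difference 0.36, SE 0.11, adjusted p = 0.928 by limma). In the high libraries it was at 1.93 and 1.67 CPM. Stra6, the membrane receptor that takes up retinol, was at 18.4 and 12.4 CPM in the controls, 10.4 and 13.2 CPM in the low libraries, and 17.4 and 14.1 CPM in the high libraries, with control 2 inside the range of the low group. Rbp4 and Ttr, the carriers of retinol in blood that the visceral endoderm also makes, were among the genes with the smallest p for high against control. Rbp4 had 98.2 and 147 CPM in the high libraries, against 98.98 and 48.0 CPM in the controls (log2 difference 0.79, SE 0.34, adjusted p = 0.866 by limma), and 75.2 and 106 CPM in the low libraries. Ttr had 135 and 181 CPM in the high libraries, against 132 and 74.1 CPM in the controls (log2 difference 0.66, SE 0.25, adjusted p = 0.866 by limma), and 126 and 149 CPM in the low libraries. Control 2 was the lowest library for both. Both genes are also among the visceral endoderm markers given below, for which control 2 had the lowest sum.

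Of 20 measured receptors and coregulators, 7 were higher and 13 lower by sign for low against control (median -0.02), 10 and 10 for high against control (0.00), while high against low gave 11 and 9 (0.01). Nr2f6, an orphan receptor of the COUP-TF family, had 42.9 and 45.3 CPM with the low dose and 40.8 and 41.9 CPM with the high dose, against 34.8 and 33.2 CPM in the controls (log2 differences of 0.36 and 0.27, SE 0.06 each, adjusted p of 0.889 and 0.866 by limma). Ncoa2, a receptor coactivator, had 49.9 and 49.7 CPM in the low libraries, against 57.4 and 53.2 CPM in the controls. Ppard, a nuclear receptor for fatty acids, had 22.7 and 16.6 CPM in the low libraries, against 16.4 and 15.3 CPM in the controls. Nr6a1, an orphan receptor of the gastrulating embryo, had 238 and 254 CPM in the high libraries, against 210 and 217 CPM in the low libraries (adjusted p = 0.405 by limma).

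Of 17 measured genes known to respond to retinoic acid, 3 were higher and 14 lower by sign for low against control (median -0.19), 14 and 3 for high against control (0.43), while high against low gave 13 and 4 (0.86). Cdx1, which patterns the caudal embryo, was at 20.6 and 9.72 CPM in the controls, 2.56 and 7.54 CPM in the low libraries, and 51.7 and 41.2 CPM in the high libraries, and differed by 3.10 (SE 0.43, adjusted p = 0.233 by limma) for high against low. Tshz1, a zinc finger gene of the trunk, was at 5.33 and 3.91 CPM in the controls, 3.11 and 4.78 CPM in the low libraries, and 9.16 and 9.85 CPM in the high libraries, and differed by 1.11 (SE 0.18, adjusted p = 0.233 by limma) for high against low. Meis2, a homeodomain partner of Hox proteins, had 45.0 and 50.7 CPM in the high libraries, against 21.5 and 30.9 CPM in the low libraries (adjusted p = 0.256 by limma). In all 3, low 1 was the lowest library. Hoxb3 had 2.33 and 1.93 CPM in the high libraries, against 1.35 and 0.924 CPM in the controls, and Hoxa2 had 0.135 and 0.814 CPM in the low libraries, against 1.51 and 1.06 CPM in the controls.

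**Figure D3:**
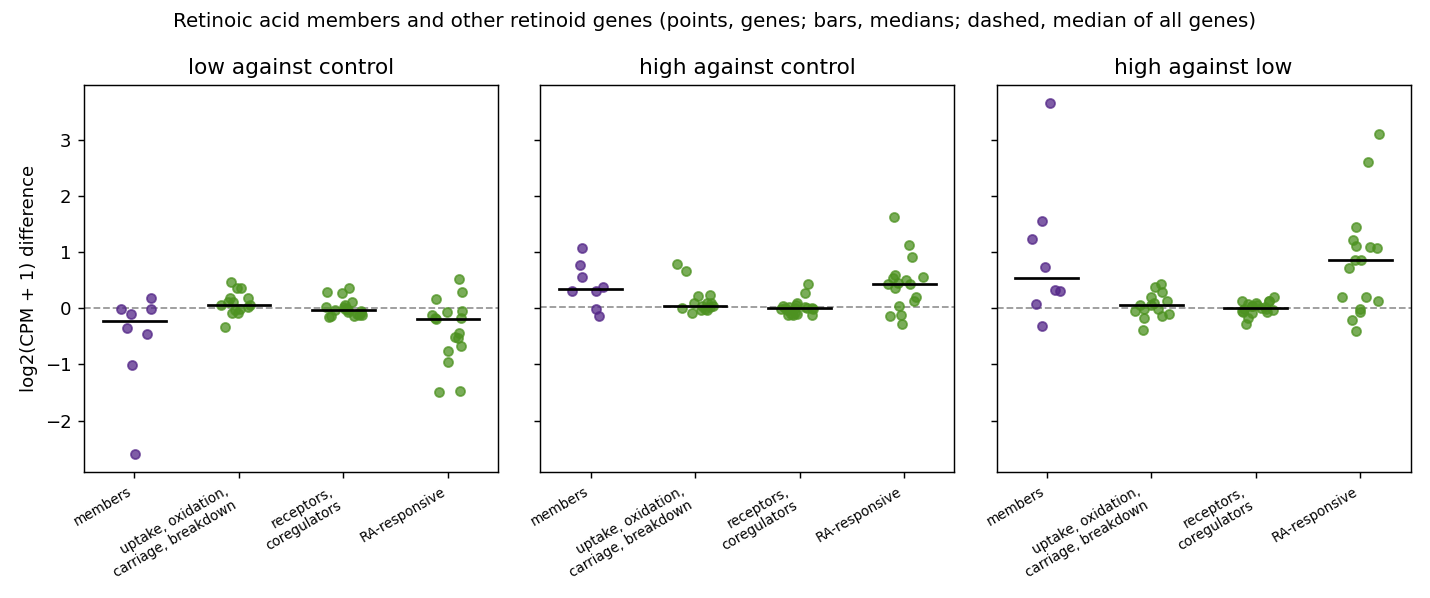
Difference of log2(CPM + 1) (vertical axis) for the 8 members and the 3 lists of other retinoid genes in the 3 comparisons; points are genes, bars are medians, and the dashed line is the median of all genes. The list of responsive genes has medians of -0.19, 0.43 and 0.86, and the other lists lie near 0.

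Markers of embryo stage and of other cell types moved with some of these values, and their part in them was not tested. The summed CPM of all 10 epiblast markers (10 measured) was 2036 and 2470 in the controls, 2746 and 2091 in the low libraries, and 1911 and 1643 in the high libraries, so low 1, with the least Aldh1a2, was highest. By sign, 8 of the 10 were higher for low against control and 0 for high against control. Of 9 measured markers of later mesoderm among 15 listed, 4 were higher by sign for low against control and 8 for high against control, with sums of 230 and 184 CPM in the controls, 191 and 246 CPM in the low libraries, and 234 and 265 CPM in the high libraries. Trophoblast markers (11 of 15 measured) summed to 472 CPM in low 1 and to 298 to 315 CPM in the other 5 libraries. Of these markers, Eomes, which is also counted among the primitive streak markers below, was at 233 CPM in low 1 and at 86.5 to 176 CPM elsewhere. Hand1, at 28.7 to 56.8 CPM, is counted among the trophoblast, later mesoderm and extraembryonic mesoderm markers, so their sums are not independent. Plet1 was at 43.6 CPM in low 1 and at 2.40 to 7.65 CPM elsewhere. Cdx2 was lowest in low 1, at 13.3 CPM against 29.6 to 52.6 CPM elsewhere. By sign, 9 of the 11 were higher in each comparison with the controls, and Elf5 had no row. Visceral endoderm markers (12 of 12) summed to 2419 and 1156 CPM in the controls, 1868 and 2194 CPM in the low libraries, and 1952 and 2628 CPM in the high libraries. They include Rbp4 and Ttr. By sign, all 12 were higher in each comparison with the controls. Decidua markers (7 of 13) summed to 110 to 148 CPM, and blood markers (5 of 12) to 12.8 to 23.1 CPM, over the 6 libraries. Primitive streak markers (16 of 16) summed to 926 and 965, 1104 and 1003, and 862 and 725 CPM, extraembryonic mesoderm markers (8 of 10) to 155 and 136, 148 and 192, and 157 and 253 CPM, and definitive endoderm markers (10 of 10) to 401 and 470, 420 and 399, and 377 and 320 CPM, for the controls, the low and the high libraries. By sign, 9 streak markers were higher for low against control and 5 for high against control. In the same order, 3 and 8 extraembryonic mesoderm markers and 4 and 1 definitive endoderm markers were higher. Fewer cells of a type and less RNA per cell cannot be told apart in such bulk libraries.

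The members' methylation was mostly low, in all 3 groups, with single highly methylated tiles inside Aldh1a2, Dhrs3 and Rarg and a pair of them inside Rarb. It was not named as a ground for choosing the genes, but the choice was made with earlier results of these data known. Of 72 tiles, 58 had a mean under 20% (80.6%, beside 49.7% of all tiles), 9 had 20 to 60% and 5 had over 60%. Within 1 kb of a gene start, 43 of 48 tiles were under 20% (median 6.23%), and of the 10 tiles over 5 kb from a start in the expression table, 5 were over 60% (median 58.4%). Those 10 include 3 Rarb tiles, with means of 1.75 to 10.1%, at or beside the RefSeq promoter window shown above, which lies far inside the gene as the expression table gives it. The start of Rdh10 and of Crabp2 was taken as the lower coordinate, as their strand was not in the tables used. No coverage stands beside the percentages, so the depth behind a tile is unknown.

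At Aldh1a2 the 13 tiles had means of 2.17 to 73.9%. Of these, 4 tiles overlap the promoter window shown above. The tile that holds most of the bases just before the start site, at 71215701 to 71215800, was at 12.5, 10.4 and 11.4% in the controls, 14.0, 8.53 and 9.78% in the low libraries, and 8.03, 7.83 and 11.01% in the high libraries, and its groups overlapped. The tile with the highest mean lay 70861 bp into the gene. Over the 13 tiles the mean was 15.4, 15.2 and 16.0% in the low libraries, against 16.6, 16.0 and 16.5% in the controls, and 15.7, 15.1 and 17.1% in the high libraries. The group means differed by -0.85 percentage points for low against control, with exact two-sided permutation p = 0.1 (n = 3 each), the smallest value that 3 against 3 can give, and adjusted p = 0.8 over 24 tests.

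At Rarb the DR5 repeat, at 16575513 to 16575529, lies within the tile at 16575501 to 16575600. That tile was at 0, 8.62 and 0% in the controls, 1.75, 1.85 and 4% in the low libraries, and 0.74, 0 and 2.91% in the high libraries. Apart from control 2, each library was at or below 4%, and the groups overlapped. Farther from that window, to both sides and within the same gene, methylation was high: the tile at 16436801 to 16436900 had a mean of 86.0% and that at 16688001 to 16688100 a mean of 71.5%. The Rarb tile nearest the gene start, 94905 bp into the gene at 16724201 to 16724300, was at 40.0 to 76.7%, and its groups overlapped. No tile overlaps the Cyp26a1 window; the nearest, centred 152 bp into the gene, was at 0 to 0.89% in all 9 libraries.

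At the other starts the nearest tile overlapped between all groups, except at Rdh10, where it was at 0.23, 0.42 and 0.30% in the high libraries, against 0.43, 0.44 and 0.57% in the controls. All 9 Rdh10 values were below 1%. The nearest tile ranged over the 9 libraries from 0 to 4.94% at Rarg and from 8.85 to 12.03% at Dhrs3. At Crabp2, with 2 tiles, it was at 1.33 to 13.6%. Methylation before the start was at a higher level at Crabp1, whose 4 tiles had means of 47.6% and 35.7% before the start and of 16.3% and 5.08% after it. Dhrs3 also had more before its start, with tile means of 21.3, 14.7 and 10.5%, than just after it, with 2.63, 2.36 and 4.01%.

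**Figure D4:**
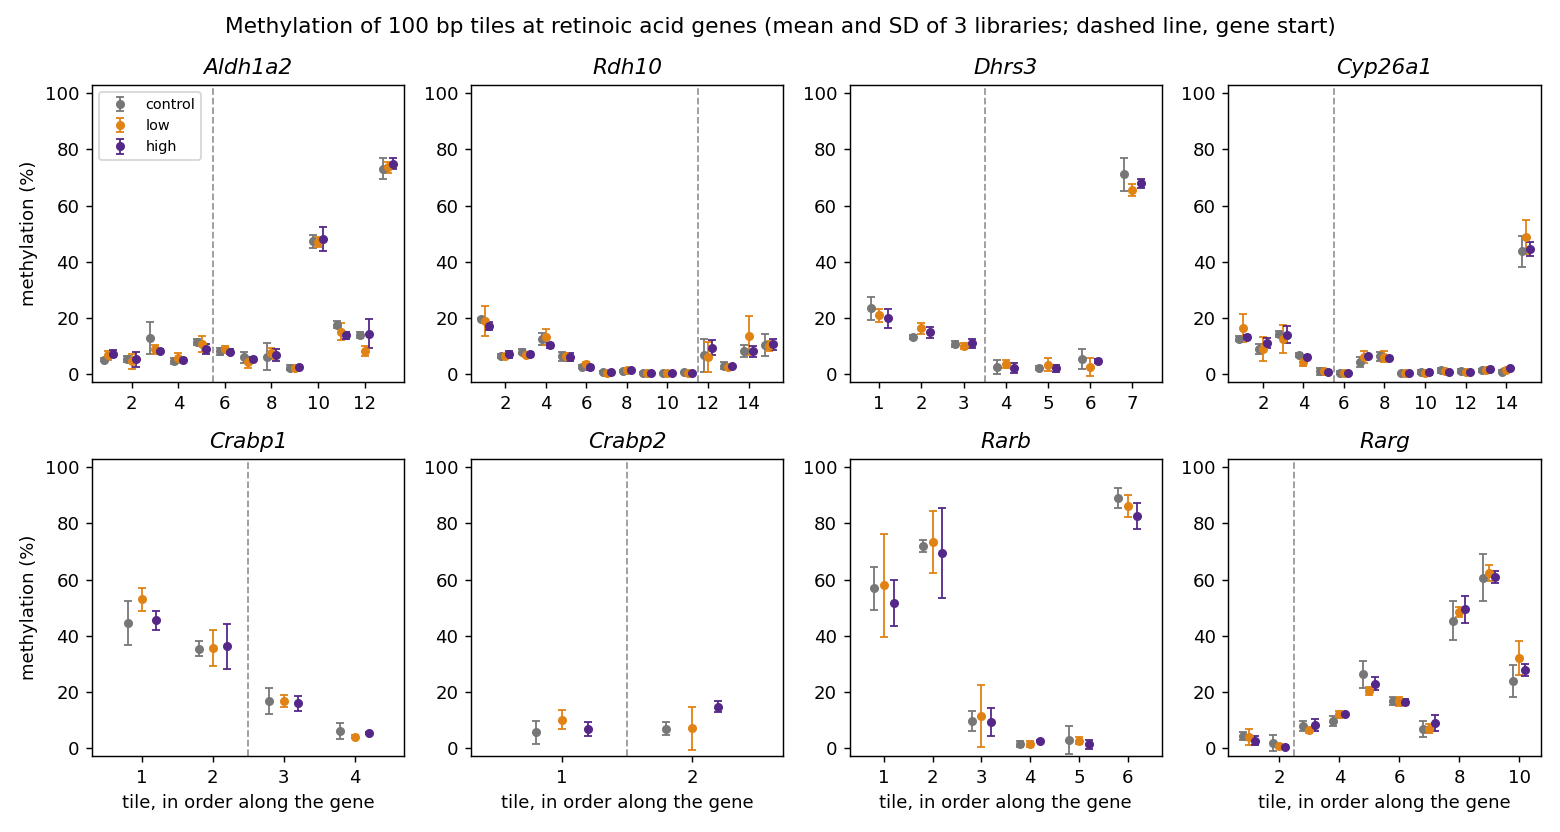
Methylation in percent (vertical axis) of each 100 bp tile at the 8 genes, in order along the gene from upstream to downstream; points are means of 3 libraries, bars are SD, and the dashed line is the gene start (before the first tile for Rarb). The 3 groups run together. Values are low at most starts, but not just before Crabp1 or at the Rarb tile nearest its start. The highest values lie inside Aldh1a2, Dhrs3, Rarb and Rarg.

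Tested with limma over all 141251 tiles, 0 were called in any of the 3 comparisons (0.0% each), and so 0 of the 72 tiles. The lowest adjusted p among the 72 was 0.89 for low against control and 1.0 for the other comparisons. At an unadjusted p under 0.05 stood 4 of the 72 tiles for low against control, where 5.49% of all tiles did, 1 for high against control (4.44% of all) and 1 for high against low (4.71% of all). Tiles without overlap between the groups numbered 2 higher and 3 lower for low against control (5.26% and 4.27% of all tiles), 6 higher and 5 lower for high against control (5.16% and 4.07%), and 2 higher and 1 lower for high against low (4.8% and 4.76%). The members' median differences were 0.03, -0.03 and -0.07 percentage points, beside 0.07, 0.08 and 0.01 for all tiles.

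Among the tiles with the smallest p were the most negative differences of the 72 tiles in each comparison. So were the most positive ones for high against control and for high against low, and none of these tiles passed the test. At Aldh1a2 the tile at 71217401 to 71217500, centred 1661 bp into the gene, was at 5.98, 9.42 and 8.65% in the low libraries, against 14.5, 14.7 and 12.6% in the controls (difference -5.90 percentage points, SE 2.48, adjusted p = 0.91 by limma). In the high libraries it was at 10.2, 12.5 and 20.2%. The low libraries lay below both other groups there. The Aldh1a2 tile at 71216501 to 71216600 was at 14.9, 13.5 and 12.6% in the high libraries, against 16.0, 18.3 and 18.3% in the controls (-3.88 points, SE 1.58, adjusted p = 1.0 by limma). At Cyp26a1 the tile at 37697301 to 37697400, before the gene, was at 2.85, 5.54 and 4.51% in the low libraries, against 7.05, 7.20 and 5.78% in the controls (-2.38 points, SE 0.90, adjusted p = 0.89 by limma). At Dhrs3 the tile at 144892201 to 144892300, also before the gene, was at 17.8, 16.7 and 14.1% in the low libraries, against 13.2, 13.8 and 12.2% in the controls (3.16 points, SE 1.31, adjusted p = 0.905 by limma).

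At Crabp2 the tile at 87952901 to 87953000, near the far end of the gene, was at 13.3, 13.8 and 16.9% in the high libraries, against 5.45, 5.71 and 9.49% in the controls (7.79 points, SE 3.64, adjusted p = 1.0 by limma). The low libraries were at 15.9, 2.06 and 2.86%, so they overlapped both other groups. High against low, that tile differed by 7.74 points (SE 3.64). Rarg at 102257201 to 102257300 was at 11.6, 12.2 and 12.6% in the high libraries, against 9.27, 7.94 and 11.4% in the controls. Rarb at 16436801 to 16436900 was at 86.4, 84.3 and 77.6% in the high libraries, against 86.7, 87.4 and 93.2% in the controls. For high against low, the remaining tiles with the smallest p were lower: that at 54764201 to 54764300 before Crabp1 by 7.49 points and that at 16104901 to 16105000 before Rdh10 by 2.91 points.

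Averaged over the tiles of a gene, methylation differed by at most 4.50 percentage points between groups. That was at Crabp2 for high against control, where the mean of its 2 tiles was 9.33, 9.49 and 13.3% in the high libraries, against 7.49, 3.52 and 7.59% in the controls (exact two-sided permutation p = 0.1, adjusted p = 0.8). Rdh10 was at 5.65, 5.21 and 5.66% in the high libraries, against 6.03, 5.73 and 6.10% in the low libraries (exact two-sided permutation p = 0.1, adjusted p = 0.8). With Aldh1a2 for low against control, these were the 3 of 24 tests at the smallest p that the design allows, and none could pass. The difference in regional methylation of Rarb was -2.45 points for high against control, with library values of 34.9, 32.5 and 41.0% against 35.1, 40.3 and 40.4%. Since the expression and methylation columns are not tied to the same animals, no relation between the 2 measures was computed.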

How the data were processed

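The expression table holds CPM for 2 libraries per group, scaled by the authors and named so per the file headers. Its 3 lines of reads without a gene (27.9 to 29.8% of each total) were left out. Each column rises in whole steps (tolerance 0.01) but sums to 982921 to 1017434, so the authors used a further factor that is not given in the sources used here, and log-scale tests took the place of count tests. The methylation table holds, for 100 bp tiles, percent methylation deposited by the authors without coverage. Per the submitters' processing notes, the authors used tools that include Bismark, methylKit, edgeR and TopHat, and builds mm8 and mm10, with no role given. Coordinates matched RefSeq GRCm38.p6 within 1000 bp for 98.3% of 12728 genes. Of the tiles, 35291 lay within 500 bp of RefSeq gene ends, beside 1651 to 3275 once the ends were shifted, so both tables were read as GRCm38.

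Columns were grouped by the treatment in their name. The 12987 genes with at least 1 CPM in 2 libraries entered limma (version 3.58.1, R 4.3.3) as log2(CPM + 1) with a variance trend, and all tiles entered it as percent methylation without a trend. Each fit held the 3 groups, with Benjamini-Hochberg adjustment over all features. Regional means were compared by exact permutation tests (SciPy 1.17.1). In data simulated for high against control, changes were planted in genes and tiles drawn at random. The noise was normal, with the fitted spread, and independent between features. Of genes changed by 1 on the log2 scale, 99% were recovered among 12987 genes (7.23% of calls fell on unchanged genes). Among 141251 tiles, 25.2% of those changed by 10 percentage points and 76.4% of those changed by 30 were recovered (6.06% of calls on unchanged tiles). In the real libraries, Aldh1a2 at 1.07 and Cdx1 at 1.63 were not called in that comparison. The simulated shares therefore do not give the power for genes with a large spread. Pathway genes named are those called or, failing that, the 3 per list and comparison whose p was smallest, apart from some that are not reported here; tiles named are the nearest to each start and the 2 of smallest p in each direction; Aldh1a2 is set beside the 5 genes of highest correlation. Members, lists and rules were chosen with earlier results of these data known. Alternatives were other pseudocounts, filters, scalings and fits, and leaving out each library.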

Additional observations from a re-analysis of the deposited data

How the results depend on the processing

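Depth is known only as relative steps for expression and is unknown for tiles, and 2 or 3 libraries a group limit every comparison. For the 8 members, 185 of 186 log2 differences under another pseudocount, filter, scaling, trend, fit or block kept their sign, as did 139 of 144 with a library left out; 6 moved by more than the spread between replicates, for Dhrs3, Rarb and Cyp26a1. Of the regional methylation differences, 43 of 48 kept their sign with other flanks and 127 of 144 with a library left out. The column numbers did not pair the libraries (correlations of deviations from -0.07 to 0.09 for expression and from -0.03 to 0.03 for methylation), and with the number as a replicate block 0 genes were called for high against control. Without a trend 0 genes were called there. With only the groups compared in the fit, 2 genes were called for high against control and 9 for high against low. With a library left out, the genes called ranged from 0 to 65 for low against control, 0 to 2 for high against control and 0 to 291 for high against low, the upper values of the first and last without low 2. Other retinoid genes called ranged from 0 to 4, 0 to 0 and 0 to 10. Members without overlap in either direction, an alternative added after seeing the data, ranged from 5 to 7, 7 to 8 and 8 to 8. The share of all genes was not computed for it. Over all tiles, 5, 8 and 8 were called on the logit scale and 1, 2 and 2 with a trend, and with a library left out 0 to 1 for each comparison with the controls; 0 member tiles were called under any of these or with no flanks or 5 kb flanks. A logit scale, trend, fit or block for regional means was not run. The causes were not tested.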
